A study of Mus musculus with 18 samples.

Results

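Adipokines are proteins that fat tissue releases into the circulation or into its own surroundings, and 10 genes of the classical members were followed here in brown and white fat: Lep (leptin), Adipoq (adiponectin), Retn (resistin), Cfd (adipsin), Rarres2 (chemerin), Nampt (also called visfatin), Serpina12 (vaspin), Rbp4 (retinol binding protein), Apln (apelin) and Itln1 (omentin). They were chosen by name, with earlier results of these data known. Of the 10 genes, 9 had a probe set annotated to that gene alone, with 14 probe sets in all, out of 18194 genes and 45037 probe sets tested. Cfd was not analysed here.

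RNA was measured on Affymetrix mouse arrays in interscapular brown adipose tissue (BAT), inguinal subcutaneous white adipose tissue (sWAT) and mesenteric white adipose tissue (mWAT) of female Sv129 mice aged 10 weeks. The mice had been held for 10 days in the cold at 6°C or at 28°C, the temperature taken as thermoneutrality, and each depot and temperature had 3 arrays, or 18 in all. No group carried a transgene or a drug according to the labels, and the 28°C groups served as the controls. Depot and temperature come from the array titles, since the tissue and temperature fields among the other characteristics contradict the titles on all 18 arrays. Grouping by title accounted for a median of 65.3% of the variance of a probe set, and grouping by those fields for 41.5%. Which arrays came from the same mouse is not stated, so 1, 2 and 3 only name the arrays of a group.

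A gene's value here is the log2 of the deposited intensity of its brightest probe set, where a difference of 1 is a change of 2-fold. Probe sets differ in how well they bind, so levels are compared between groups for 1 probe set and never between genes. A difference was called when its limma p, adjusted by Benjamini-Hochberg over all 45037 probe sets, was under 0.01. Array medians lay between 6.97 and 7.20. Mature adipocyte markers (12 genes measured) averaged 12.27 to 13.18 on every array, and brown and beige adipocyte markers (10 genes) averaged 12.68 to 12.70 in BAT at 6°C, 11.65 to 11.89 in BAT at 28°C, 10.49 to 10.96 in sWAT at 6°C, 8.11 to 8.65 in sWAT at 28°C, 8.54 to 9.04 in mWAT at 6°C and 7.45 to 8.12 in mWAT at 28°C. These fat markers follow the titles. Other tissue was present too, and unevenly. The mean of 10 skeletal muscle genes was 7.61, 10.45 and 8.46 on arrays 1 to 3 of BAT at 6°C against 8.84, 12.94 and 12.54 in BAT at 28°C, and ranged from 6.01 to 12.04 in sWAT and from 6.19 to 7.61 in mWAT. Mesothelial genes (10) averaged 10.02 to 11.39 in mWAT and at most 7.26 elsewhere. Lymphocyte genes (8) averaged 6.83 on array 3 of mWAT at either temperature and 11.23 to 11.41 on the other mWAT arrays. Pancreas genes (6) averaged 14.12 on array 2 of mWAT at 6°C, 10.69 on array 3 of BAT at 6°C and 10.17 on array 1 of mWAT at 28°C, against at most 7.33 on the others.

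Leptin is the hormone by which fat stores are reported to the hypothalamus, where it curbs food intake. Adiponectin raises insulin sensitivity in liver and muscle, and resistin, which in mice is made by adipocytes, opposes insulin action. Chemerin attracts leukocytes and also acts on adipocytes, vaspin is a serpin that inhibits the protease kallikrein 7, apelin is a peptide ligand of a G protein-coupled receptor, and NAMPT is the rate-limiting enzyme of NAD salvage that is also found outside cells. In the cold, sympathetic nerves release noradrenaline in fat, which drives lipolysis and heat production in brown adipocytes.

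Lep and Serpina12 were the members called for temperature, and the 250 bases before the transcription start of each are printed so that both can be read beside their values. They come from the RefSeq annotation of GRCm38.p6, which gave a start for 9 of the 10 genes and 10 promoters in all. Capitals mark the C/EBP motif TTGCGCAA, which was the single match in the Lep stretch among the motifs searched. The Lep bases lie on the plus strand at chr6:29059971-29060220 and the Serpina12 bases on the minus strand at chr12:104044444-104044693.
Lep: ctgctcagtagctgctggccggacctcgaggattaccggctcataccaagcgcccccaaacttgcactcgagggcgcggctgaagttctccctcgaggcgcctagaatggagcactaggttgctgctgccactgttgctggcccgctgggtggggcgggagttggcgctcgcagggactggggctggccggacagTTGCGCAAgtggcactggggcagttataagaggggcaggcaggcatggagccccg
Serpina12: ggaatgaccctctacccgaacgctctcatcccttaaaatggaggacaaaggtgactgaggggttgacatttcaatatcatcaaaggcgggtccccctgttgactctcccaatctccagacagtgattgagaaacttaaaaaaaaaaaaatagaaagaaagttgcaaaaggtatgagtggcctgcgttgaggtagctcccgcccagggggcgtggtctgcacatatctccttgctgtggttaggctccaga

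The motif in Lep spans positions -55 to -48 from the start, and TTGCGCAA is present in 0.183% of 32851 promoters of 300 bases (250 before to 50 after the start). The other motifs, searched on both strands in the same window, were the nuclear receptor motif AGGTCA, its direct repeat DR1, the broader C/EBP form TTGCNNCAA, the E box CACGTG, the cAMP element TGACGTCA and its shorter form TGACGT, the D box TTATGTAA and the TATA box TATAAA. The shorter cAMP form is part of the longer one, the nuclear receptor motif is part of DR1, and the stricter C/EBP form is not contained in the broader one. AGGTCA matched in Nampt at -151 to -146 (16.3% of promoters hold it) and TATAAA in 1 of the 2 Rbp4 promoters at -28 to -23 (13.6%). No searched motif matched in Serpina12, which says only that these letters are not in that window.

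Exposure to cold changed Lep and Serpina12 in BAT, Serpina12 in sWAT, and no member in mWAT at the threshold. In BAT, 1 member was higher at 6°C and 1 lower, where 5.28% of all probe sets were called, and the median difference of the 9 members was -0.19 against 0.01 over all probe sets. In sWAT 1 member was higher and 0 were lower, with 0.48% of probe sets called. There the median difference was 0.17 against -0.01 over all probe sets. In mWAT limma called 0 of 9 members, with 0.00222% of probe sets called and a median of -0.02 against -0.01. By the brightest probe set of each gene, 5.33, 0.742 and 0.0055% of all genes were called in BAT, sWAT and mWAT. An unadjusted p under 0.05 was reached by 5 members in BAT, 2 in sWAT and 1, Lep, in mWAT.

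**Figure D1:**
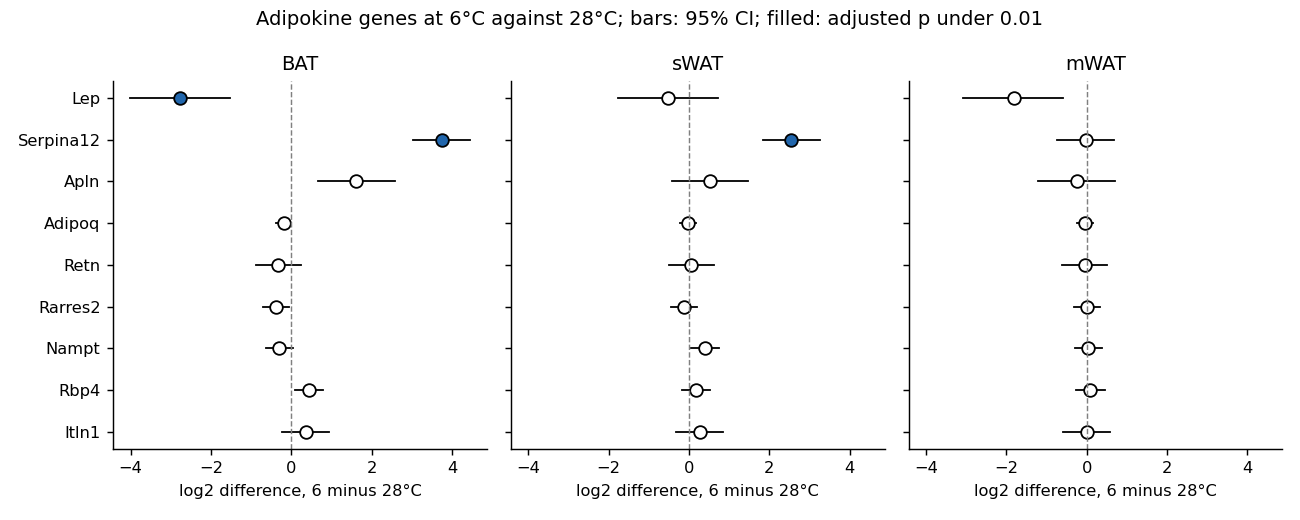
Log2 difference of the 9 measured adipokine genes at 6 minus 28°C in BAT, sWAT and mWAT, with 95% confidence intervals from the limma fit (3 arrays a group). Filled points passed the threshold: Lep at -2.76 and Serpina12 at 3.74 in BAT, and Serpina12 at 2.54 in sWAT.

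Lep, the leptin gene, was lower in cold BAT. Its log2 intensity was 8.57, 10.55 and 9.92 in BAT at 6°C against 12.25, 12.72 and 12.36 in BAT at 28°C. All 3 cold arrays lay below all 3 warm ones, and they were also further apart from each other (SD 1.01 against 0.25). The difference was -2.76 ± 0.58 (SE, adjusted p = 0.0065), a level 6.8-fold lower. In mWAT the arrays did not overlap either, with 10.47, 8.93 and 11.19 at 6°C against 11.95, 12.72 and 11.39 at 28°C, but the difference of -1.82 (95% interval -3.07 to -0.58) had an adjusted p of 0.91. Array 2 of cold mWAT, the lowest for Lep, was the array with pancreas genes at 14.12, and without it the difference was -1.19. In sWAT, Lep was 12.33, 11.34 and 12.36 at 6°C against 12.86, 11.74 and 12.98 at 28°C. These groups overlapped, and the difference was -0.52 (-1.76 to 0.73). The responses of BAT and sWAT differed by -2.25 ± 0.83 (adjusted p = 0.21), which did not pass. In bulk tissue, fewer cells of a type and less RNA per cell cannot be told apart.

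The call of Lep in BAT was near the threshold. It was lost when any of the 3 warm arrays or cold array 1 or 3 was left out, with differences of -2.21 to -2.88 and adjusted p of 0.016 to 0.034, and in a fit of the BAT groups alone (adjusted p = 0.023). Within cold BAT the order of Lep over the 3 arrays was that of the skeletal muscle genes, both lowest on array 1 and highest on array 2, and with the muscle mean as a covariate the difference was -2.9 (adjusted p = 0.019).

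Serpina12, the gene of the kallikrein 7 inhibitor vaspin, had the largest cold difference of the 9 genes in BAT and in sWAT. The study of these arrays already listed Serpina12 among the genes most raised by cold in BAT and among its browning genes. Its log2 intensity was 11.81, 11.78 and 11.69 in BAT at 6°C against 8.33, 7.55 and 8.16 in BAT at 28°C. The cold arrays lay close together (SD 0.06) and far above the warm ones, a difference of 3.74 ± 0.33 or 13.4-fold (adjusted p = 1.6e-05). In sWAT it was 9.32, 7.65 and 8.93 at 6°C against 6.06, 5.77 and 6.44 at 28°C. The groups did not overlap, and the level was 5.83-fold higher at 6°C (2.54 ± 0.33, adjusted p = 0.0014). In mWAT it was 5.84, 6.27 and 5.87 at 6°C against 5.91, 5.91 and 6.23 at 28°C, with overlap and a difference of -0.02 (-0.73 to 0.69). Leaving out each array in turn kept the BAT difference between 3.51 and 3.9 with every adjusted p at most 0.00018. The sWAT call was lost without warm array 1 or 2 or cold array 3 (2.53, 2.38 and 2.39, adjusted p 0.011, 0.012 and 0.011), and in a fit of the sWAT groups alone (adjusted p = 0.1).

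The other, dimmer Serpina12 probe set gave a similar picture for BAT and a smaller one for sWAT. It read 6.99, 6.46 and 6.67 in BAT at 6°C against 2.95, 3.94 and 3.25 in BAT at 28°C, a difference of 3.33 ± 0.24. In sWAT it read 4.02, 3.74 and 4.32 at 6°C against 3.40, 3.35 and 3.36 at 28°C, apart by 0.66 ± 0.24 but not called (adjusted p = 0.24). This probe set was at 2.68 to 4.32 in every group but BAT at 6°C, where the lowest log2 value of the table is 2.15, and in BAT at 6°C it was still below the median of all probe sets and arrays, 7.12. It can therefore understate a difference. Over the 18 arrays the 2 probe sets correlated at r = 0.9, points that share group and array.

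The cold responses of Serpina12 were then set against each other. The rise in BAT exceeded the change in mWAT by 3.76 ± 0.47 in the bright probe set (adjusted p = 0.0013) and by 3.75 ± 0.34 in the dim one (0.00014). This was the 1 member called for BAT minus mWAT, where 0.582% of probe sets were called. For BAT minus sWAT the bright set gave 1.2 ± 0.47 (adjusted p = 0.25) and the dim set 2.67 ± 0.34 (0.0019). The dim set was near the bottom of the scale in both depots at 28°C and averaged only 4.02 in sWAT at 6°C, so it is a poor measure of the sWAT response, and its value is not set against that of the bright set. By the bright sets, 0 of 9 members were called for BAT minus sWAT, with 3 at an unadjusted p under 0.05 and 0.362% of probe sets called by limma. For sWAT minus mWAT, 0 members and 0% of probe sets were called, and 1 member, Serpina12 (2.56 ± 0.47), had an unadjusted p under 0.05.

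Apln, the peptide apelin that acts on endothelial and other cells, was 8.11, 7.96 and 8.03 in BAT at 6°C against 6.38, 6.59 and 6.26 in BAT at 28°C. The arrays were well apart in BAT, but the shared spread of the 6 groups left the difference of 1.62 ± 0.44 short of the threshold of 0.01 (adjusted p = 0.028), while a fit of the BAT groups alone called it (0.0036). In sWAT it was 7.28, 6.87 and 7.93 at 6°C against 5.84, 7.43 and 7.22 at 28°C. In mWAT it was 6.69, 5.89 and 7.18 at 6°C against 6.67, 6.15 and 7.69 at 28°C. The groups overlapped in both white depots.

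**Figure D2:**
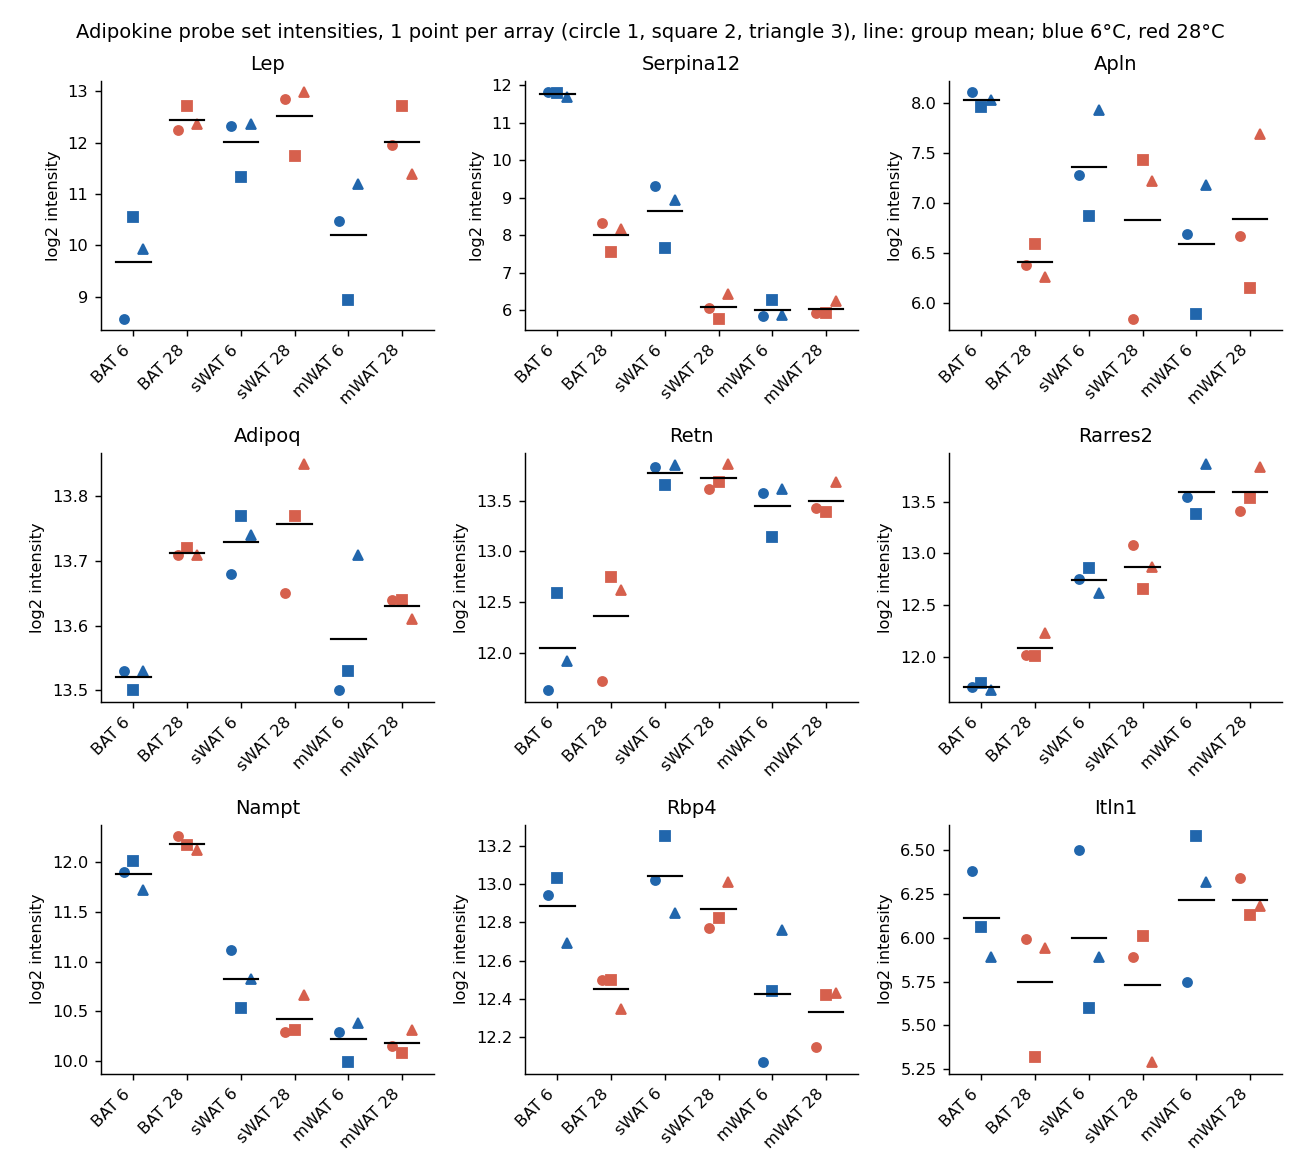
Log2 intensity of the brightest probe set of 9 adipokine genes on each of 18 arrays, by depot and temperature (°C), with a line at the mean of 3 arrays; each panel has its own axis. Serpina12 stands at 11.69 to 11.81 in cold BAT and at 5.77 to 6.44 in warm sWAT and in mWAT. Adipoq, near the top of the scale, covers 0.35 over all arrays.

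Between depots, by the brightest probe set of each gene, Nampt and Serpina12 were higher in BAT, and Retn and Rarres2 lower, than in either white depot at both temperatures. At 28°C, 2 members were higher and 2 lower in BAT than in sWAT (22.9% of probe sets called, median of members -0.08 against 0.11 over all probe sets). The same 4 were called, in the same directions, between BAT and mWAT (27.2%, 0.08 against 0.12). Only Rarres2 was called between sWAT and mWAT, lower in sWAT (5.84%, 0.13 against 0.04). At 6°C, BAT against sWAT gave 2 higher and 3 lower, Lep being added (23.7%, -0.15 against 0.13). BAT against mWAT again gave 2 and 2 (35.2%, -0.06 against 0.15). Between sWAT and mWAT, Serpina12 was higher and Rarres2 lower in sWAT (7.45%, 0.6 against 0.04). Counted by the brightest probe set of each of 18194 genes, as the members are, the shares called were 27.5, 32.5 and 7.87% at 28°C. At 6°C they were 26.8, 40.1 and 10.2%, in the same order of comparisons. At 28°C the 4 of 9 members called (44.4%) stand beside these high backgrounds, and with 9 genes nothing particular to the members is read from them. The comparisons of BAT with sWAT and with mWAT share the BAT arrays.

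**Figure D3:**
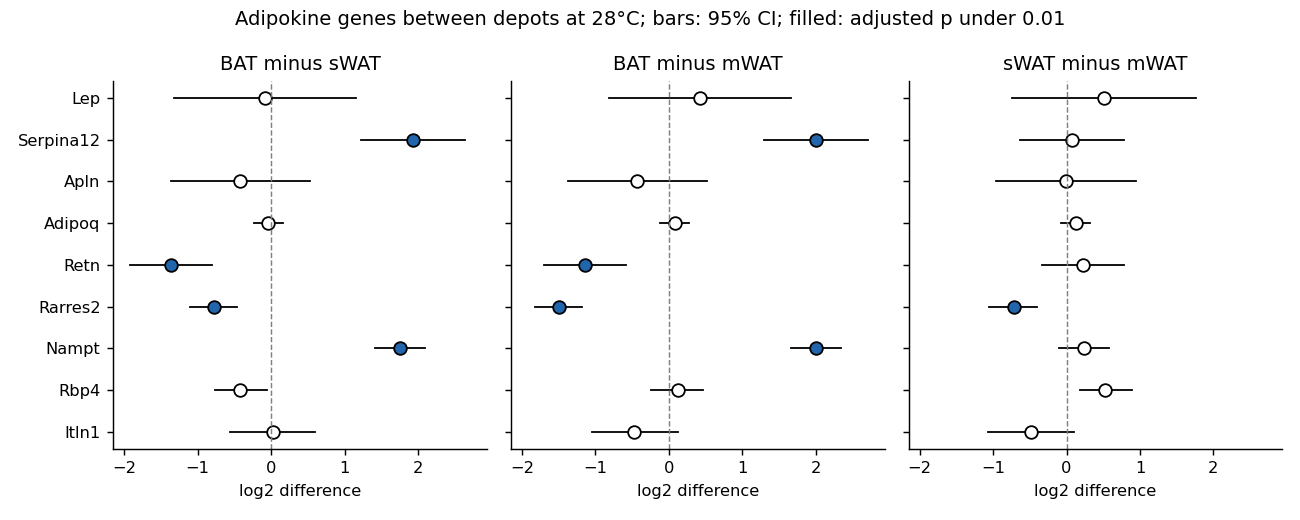
Log2 difference between depots at 28°C for the 9 measured adipokine genes, with 95% confidence intervals (3 arrays a group); filled points passed the threshold. Nampt stands at 1.76 and 2 above sWAT and mWAT in BAT, and Rarres2 at -0.78 and -1.50.

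Nampt was 12.26, 12.17 and 12.12 in BAT at 28°C against 10.29, 10.31 and 10.66 in sWAT and 10.15, 10.08 and 10.31 in mWAT. No BAT array overlapped a white one. BAT was 3.39-fold above sWAT (1.76 ± 0.16, adjusted p = 1.6e-06) and 4-fold above mWAT (2 ± 0.16, 3.3e-07). At 6°C it was 11.90, 12.01 and 11.72 in BAT against 11.12, 10.53 and 10.82 in sWAT and 10.29, 9.99 and 10.38 in mWAT, with differences of 1.06 and 1.66. Its other 2 probe sets followed it (r of 0.97 and 0.98 over arrays) and were called in all 4 comparisons of BAT with white fat, with differences of 0.95 to 2.43. The cold differences of the bright set were -0.30 in BAT and 0.40 in sWAT, neither called, and the difference between them was -0.70 ± 0.23 (adjusted p = 0.15).

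Retn, which encodes resistin, was lower in BAT. It was 11.72, 12.75 and 12.62 in BAT at 28°C against 13.62, 13.68 and 13.86 in sWAT and 13.43, 13.39 and 13.68 in mWAT. BAT was 2.56-fold below sWAT (-1.36 ± 0.26, adjusted p = 0.00098) and 2.2-fold below mWAT (-1.14 ± 0.26, 0.003). At 6°C it was 11.63, 12.59 and 11.92 in BAT against 13.83, 13.65 and 13.85 in sWAT and 13.58, 13.14 and 13.62 in mWAT, and the differences were -1.73 and -1.40. Within BAT the order of the arrays at each temperature was that of the skeletal muscle genes. With the muscle mean as a covariate all 4 differences stayed called (-1.43 to -1.78). The call against mWAT at 28°C was lost without BAT array 1 (-0.81, adjusted p = 0.015) or mWAT array 3 (-1.05, 0.012). A fit of the compared groups alone gave an adjusted p of 0.026 there and 0.011 against sWAT.

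Rarres2, the gene of the chemoattractant chemerin, was graded over the depots. Its brightest probe set was 12.02, 12.01 and 12.23 in BAT, 13.08, 12.66 and 12.87 in sWAT and 13.41, 13.53 and 13.83 in mWAT at 28°C. The 3 depots did not overlap. BAT was below sWAT by -0.78 ± 0.15 (adjusted p = 0.001) and below mWAT by -1.50 ± 0.15 (2.5e-06), and sWAT was below mWAT by -0.72 ± 0.15 (0.0055). At 6°C the same comparisons gave -1.03, -1.88 and -0.85, all called. The next brightest followed it closely (r = 0.99), with -0.84, -1.81 and -0.97 at 28°C. The dimmest ran the other way (r = -0.65 with the brightest): it was 8.83, 8.72 and 8.59 in BAT at 28°C against 8.20, 8.11 and 8.28 in sWAT, higher in BAT by 0.52 ± 0.13 (adjusted p = 0.0056), and at 6°C higher in BAT than in mWAT by 0.45 ± 0.13 (0.0096). The annotation gives all 3 to Rarres2 alone, the direction therefore depends on the probe set, and which transcript each one binds was not tested. With the mean of the 3 probe sets the BAT and sWAT difference at 28°C was -0.37 (adjusted p = 0.016). The sWAT and mWAT difference at 28°C lost its call without sWAT array 2 or 3 or mWAT array 2 or 3 (-0.60 to -0.75, adjusted p 0.013 to 0.033). The mean of 10 mesothelial genes is graded in the same order, with 28°C ranges of 5.18 to 6.22 (BAT), 6.28 to 6.97 (sWAT) and 10.53 to 11.23 (mWAT). Of these genes, 3 were called lower and 1 higher in BAT than in sWAT at 28°C, and 6 were not called. In mWAT, Rarres2 was highest on array 3 at either temperature (13.83 at 28°C, 13.86 at 6°C), where lymphocyte genes averaged 6.83. The part of mesothelial and lymphocyte genes in the Rarres2 values was not tested.

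**Figure D4:**
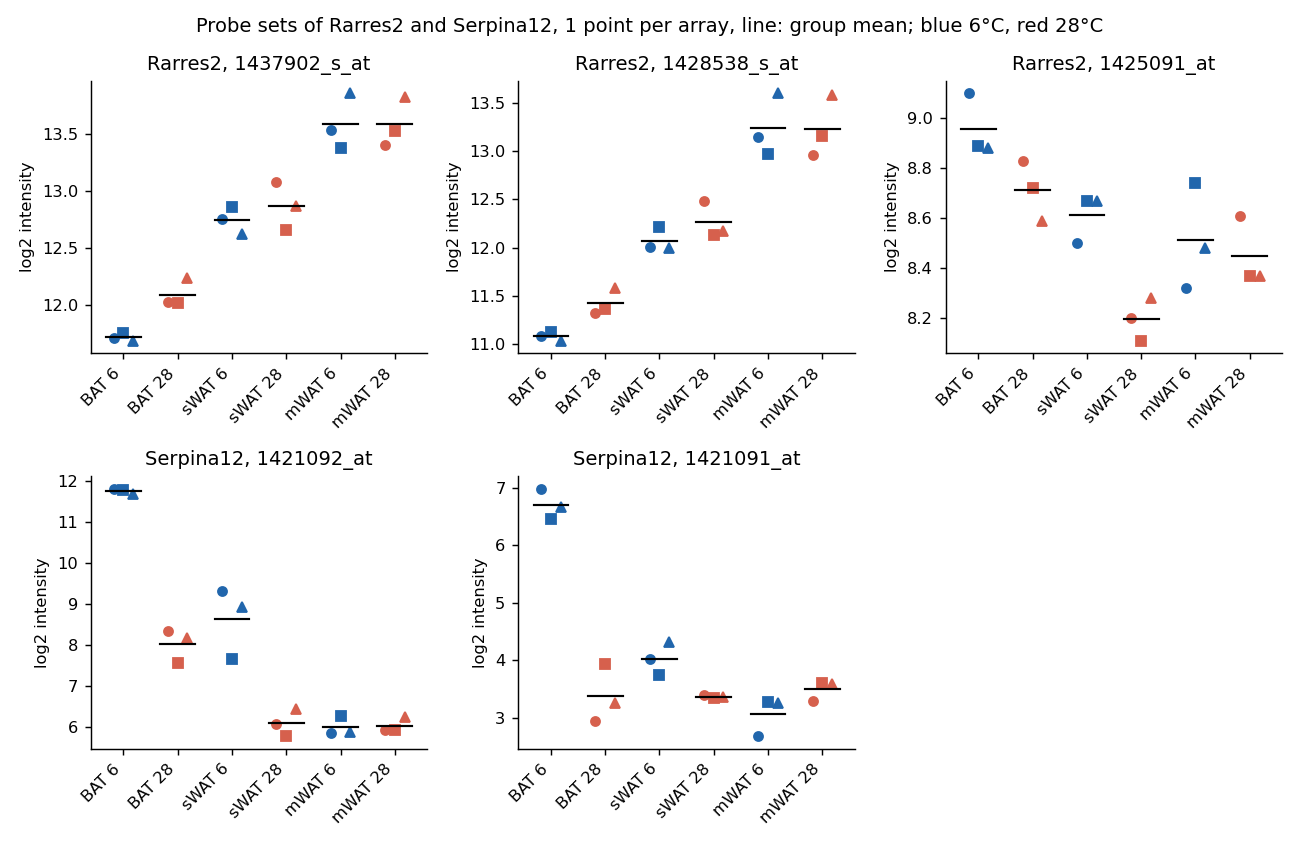
Log2 intensity of the 3 probe sets of Rarres2 and the 2 of Serpina12 on each array, by depot and temperature (°C), with group means as lines; each panel has its own axis. The brightest and next brightest Rarres2 sets (top, from the left) climb from BAT to mWAT, the dimmest (top right) is highest in BAT, and both Serpina12 sets are highest in cold BAT.

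Serpina12 differed between depots at 28°C already, with BAT above sWAT by 1.93 ± 0.33 (adjusted p = 0.00041) and above mWAT by 2 ± 0.33 (0.00023) in the bright probe set. The dimmer probe set averaged 3.38, 3.37 and 3.49 in BAT, sWAT and mWAT at 28°C, near the bottom of the scale, and cannot show a depot difference there. At 6°C the order was BAT, then sWAT, then mWAT: BAT exceeded sWAT 8.72-fold (3.12 ± 0.33) and lay above mWAT by 5.76 ± 0.33, and sWAT lay above mWAT by 2.64 ± 0.33 (adjusted p = 8.7e-05). Serpina12 was dim in mWAT, at 5.84 to 6.27, as in warm sWAT, so how far these differences run as folds is uncertain. Warm sWAT and warm mWAT were not told apart (0.07, interval -0.64 to 0.78). For Lep at 28°C none of the 3 depot differences passed: -0.08 (-1.33 to 1.16), 0.43 (-0.82 to 1.67) and 0.51 (-0.74 to 1.76). At 6°C it was lower in BAT than in sWAT by -2.33 ± 0.58 (adjusted p = 0.0061), a call lost without array 1 or 3 of either group (adjusted p 0.014 to 0.034) and in a fit of these groups alone (0.014).

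Adipoq, Rbp4 and Itln1 gave no call in any of the 12 comparisons. Adipoq, the adiponectin gene, lay at or above percentile 99.3 of the probe sets of every array and ranged from 13.50 to 13.85. The highest log2 value of the table is 14.59. Near the top of the scale a probe set can understate differences, so this narrow range does not show a constant RNA level. Retn in sWAT and Rarres2 in mWAT reached 13.86, in the same range. Adipoq was 13.53, 13.50 and 13.53 in BAT at 6°C against 13.71, 13.72 and 13.71 in BAT at 28°C, groups that did not overlap but lay only 0.19 apart (adjusted p = 0.2). Rbp4, the carrier of retinol in blood, was 12.94, 13.03 and 12.69 in BAT at 6°C against 12.50, 12.50 and 12.35 in BAT at 28°C (0.44 ± 0.17, adjusted p = 0.11). Over both temperatures it ranged from 12.35 to 13.03 in BAT, from 12.77 to 13.25 in sWAT and from 12.07 to 12.76 in mWAT. Itln1, whose product omentin is known from human visceral fat, was dim at 5.29 to 6.58 on all arrays, and 67.4% of its variance lay between arrays of a group.

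These levels depend on what the arrays are scaled to. BAT arrays had a higher mean of the mature adipocyte genes than mWAT arrays. Of these 12 genes, 6 were themselves called higher and 0 lower in BAT than in mWAT at 28°C, and 4 and 0 against sWAT. Whether their mean follows adipocyte content or the choice of these genes was not tested. Expressed relative to that mean, the median of all probe sets for BAT against mWAT at 28°C shifts by -0.82. On that scale Adipoq was -0.74 and Rbp4 -0.70 in BAT against mWAT at 28°C, both called, where the deposited scale gave 0.08 and 0.12. Both are less negative than the shift itself. Itln1 was -1.28 on that scale (adjusted p = 0.0019), more negative than the shift, against -0.47 on the deposited scale. In BAT against sWAT at 28°C, where the shift was -0.48, Adipoq was -0.52 (adjusted p = 0.0016) and Rbp4 -0.89 (0.00021). These are more negative than that shift, and the deposited scale gave -0.04 and -0.42, neither called. In BAT against mWAT at 6°C, Adipoq was -0.68 (adjusted p = 1e-04), with a shift of -0.62. Apart from Adipoq and Rbp4 against mWAT at 28°C, no called member changed direction under this or the other scalings.

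Variance was divided over the 18 arrays for each probe set. Depot accounted for 91.3 to 94.8% in the Nampt probe sets, 93.5, 93.7 and 52.7% in the brightest, next brightest and dimmest Rarres2 probe sets and 84.3% in Retn, against a median of 53.2% over all genes. Temperature accounted for 43.7% in Lep, against a median of 3.09%. For the bright Serpina12 probe set 58.5% lay with depot, 24.7% with temperature, 13.9% in their interaction and 2.88% between arrays of a group, and for the dim one 35.4, 22, 38.8 and 3.84%.

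The genes with the pattern most like a member over the 18 arrays were found by Pearson's r among 11341 genes brighter than the median, as a description in which all genes share the 6 groups. For Serpina12 they were Ffar4, a receptor for long-chain fatty acids (r = 0.98), Slc25a51, a mitochondrial NAD carrier (0.974), and Gm20346 (0.974). For Nampt they were Rpp40, Uqcc1 (both 0.988) and Mtif2 (0.987), the last of which takes part in mitochondrial translation. Dlg2 (0.987), Eno2 (0.986) and Adgrg6 (0.984) were closest to Rarres2. Gpat3, which acts in triglyceride synthesis, Alcam and Cd24a (all 0.962) were closest to Retn, and Mfsd12 (0.894), Slc39a10 (0.88) and Fam219b (0.878) to Lep, whose best match was the weakest of the 5.

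Receptors and binding partners of the adipokines (13 genes, all measured) gave 1 call for cold. Over all 18194 genes, 5.33% were called for cold in BAT, 0.742% in sWAT and 0.0055% in mWAT. In BAT 1 of 13 was lower and 0 higher, with a list median of -0.02. In the white depots limma called 0. The 1 was Aplnr, the apelin receptor, which was 10.61, 10.77 and 9.97 in BAT at 6°C against 11.88, 12 and 11.97 in BAT at 28°C. Array 3 of cold BAT, the lowest for Aplnr, was the array with pancreas genes at 10.69, whose part was not tested. No array overlapped, and the difference was -1.50 ± 0.23 (adjusted p = 0.00072, and -1.68 in the other Aplnr probe set). Without single arrays it stayed between -1.26 and -1.66 and called, while a fit of the BAT groups alone gave an adjusted p of 0.014. Its ligand Apln stood 1.62 higher on the same arrays without a call. Apela, the other known ligand of this receptor, was dim and differed between depots, higher in BAT than in sWAT by 2.61 ± 0.24 and than in mWAT by 3.04 ± 0.24 at 28°C, while its other probe set differed by 0.27 and 0.11 and was not called.

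**Figure D5:**
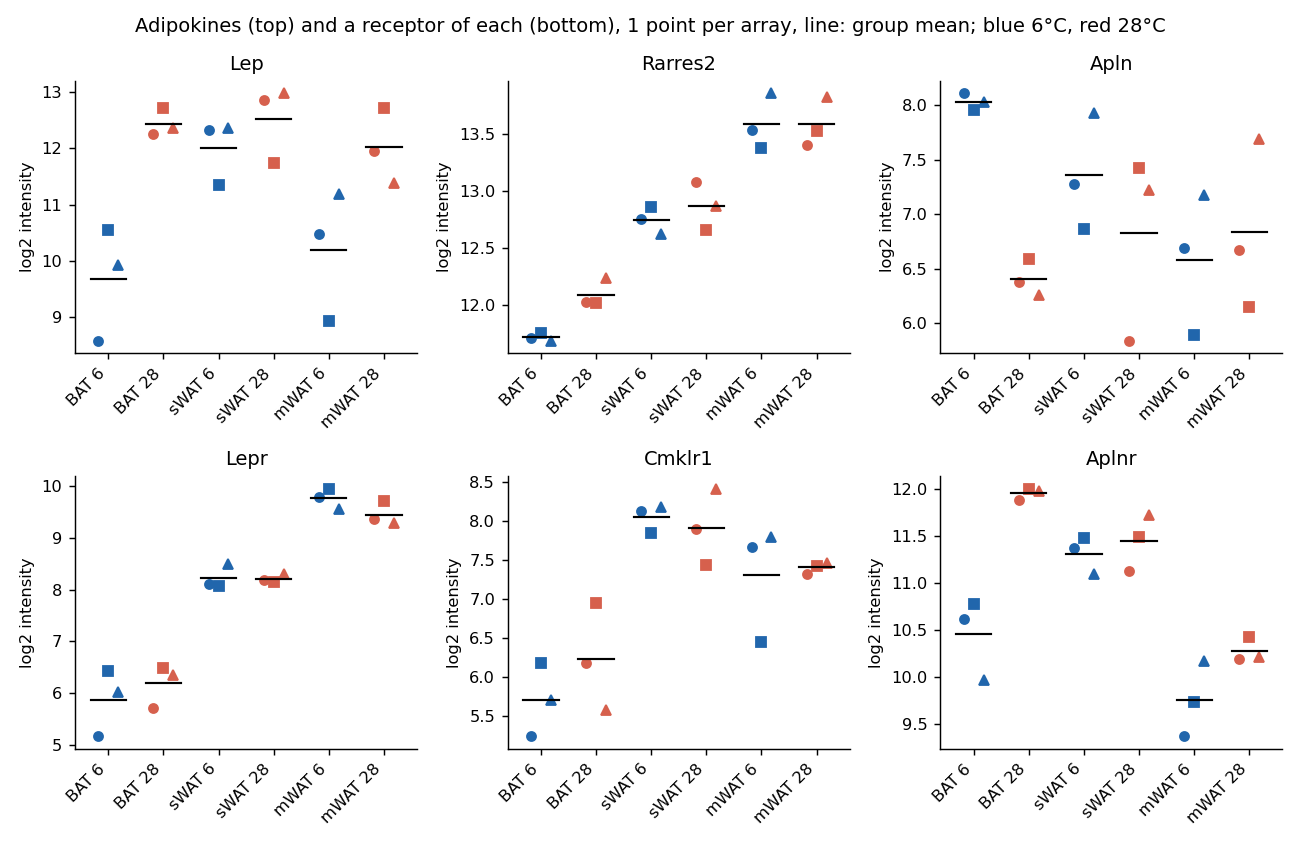
Log2 intensity of Lep, Rarres2 and Apln (top) and of a receptor of each, Lepr, Cmklr1 and Aplnr (bottom), on 18 arrays by depot and temperature (°C), with group means as lines; each panel has its own axis. In BAT, Apln is at 7.96 to 8.11 at 6°C against 6.26 to 6.59 at 28°C, and Aplnr at 9.97 to 10.77 at 6°C against 11.88 to 12 at 28°C.

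Between depots at 28°C, 1 receptor gene was higher and 5 lower in BAT than in sWAT (median -0.35), and 4 were higher and 4 lower in BAT than in mWAT (-0.15). Over all 18194 genes, 27.5 and 32.5% were called in these comparisons, with medians of 0.08 and 0.08. Lepr, the leptin receptor, was 5.72, 6.49 and 6.36 in BAT at 28°C against 8.18, 8.14 and 8.30 in sWAT and 9.36, 9.71 and 9.28 in mWAT. The 3 depots did not overlap, and BAT lay below them by -2.02 ± 0.27 and -3.26 ± 0.27. Of its 4 probe sets, 2 gave a call lower in BAT against sWAT and 3 against mWAT, with differences from -3.74 to 0.49. At 6°C, 2 were called lower and 0 higher in BAT against sWAT. Against mWAT at 6°C, 3 were called lower and 1 higher (-3.89 to 0.87), so the direction depends on the probe set. Stra6, which takes up retinol from the Rbp4 protein, was lower in BAT by -1.95 ± 0.33 against sWAT and -1.78 ± 0.33 against mWAT. Its 1 probe set was dim, averaging 4.91 in BAT, 6.86 in sWAT and 6.69 in mWAT, all below the median of all probe sets, 7.12. Gpr1, a receptor for chemerin, was higher in sWAT than in mWAT by 1.35 ± 0.18 at 28°C and 2 ± 0.18 at 6°C.

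Of 10 measured partners in folding and processing, limma called 0 for cold in any depot (5.33% of all genes in BAT, fewer in white fat). At 28°C, 1 was higher and 2 lower in BAT than in sWAT (27.5% of all genes called). Gstk1, an enzyme also known as DsbA-L that aids the assembly of adiponectin multimers, was higher in BAT by 0.83 ± 0.13 against sWAT and 0.94 ± 0.13 against mWAT, although relative to the mature adipocyte genes these were 0.35 (adjusted p = 0.035) and 0.13 (0.39). Plat, the tissue plasminogen activator, was lower in BAT by -2.18 ± 0.28 against each white depot. Its other probe set was also called lower (-1.33 against sWAT and -1.45 against mWAT). The study lists Plat among its browning genes, defined there as higher in BAT than in each white depot, which is the opposite direction. Klk7, the protease that vaspin inhibits, averaged 5.67 in BAT at 6°C against 4.96 at 28°C, a dim signal whose cold difference did not pass. At 6°C it was called higher in BAT than in sWAT, where it averaged 4.74 (0.93 ± 0.2, adjusted p = 0.0023). That call was lost without BAT array 1 or sWAT array 1 or 3 (adjusted p 0.011 to 0.013).

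The NAD salvage genes (9 measured) had 0 calls for cold (5.33% of all genes in BAT, fewer in white fat). At 28°C, 4 were higher and 1 lower in BAT than in sWAT (median 0.41), and 5 and 1 against mWAT (0.53), where 27.5 and 32.5% of all genes were called. Naprt, which makes the mononucleotide from nicotinic acid, was higher in BAT by 2.04 ± 0.21 and 2.16 ± 0.21, and Nmnat3, the mitochondrial adenylyltransferase, by 1.47 ± 0.23 and 1.89 ± 0.23 (0.10 and 0.62, not called, in its other probe set). For the alternative complement pathway, in which adipsin acts, 7 genes were measured. None was called for cold by limma (5.33% of all genes in BAT, fewer in white fat). At 28°C 4 were lower in BAT than in sWAT (-0.95) and 3 lower than in mWAT (-0.69), with 0 higher. These counts stand beside the same 27.5 and 32.5% of all genes. Cfb, factor B, the substrate of adipsin, was 7.77, 8.27 and 8.47 in BAT against 10.66, 10.16 and 10.19 in sWAT and 11, 11.10 and 10.63 in mWAT. Macrophage genes (9) were also lower in BAT, at 8.95 to 9.32 against 10.14 to 10.27 in sWAT and 10.01 to 10.15 in mWAT, and their part in the complement values was not tested.

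Of 9 retinoid genes, 1 was called for cold, in sWAT (0.742% of all genes there and 5.33% in BAT). Retsat, a retinol saturase, was 12.27, 12.24 and 12.34 in sWAT at 6°C against 10.63, 10.97 and 11.44 at 28°C (1.27 ± 0.19, adjusted p = 0.0028), a call that leaving out any cold array or warm array 1 or 2 ended (adjusted p up to 0.02), as did a fit of the sWAT groups alone (0.11) and scaling to the mature adipocyte genes (0.92, adjusted p = 0.013). Aldh1a2, which makes retinoic acid, was 5.33, 5.45 and 6.36 in BAT at 28°C, 6.89, 6.78 and 7.23 in sWAT and 10.27, 10.24 and 10.63 in mWAT. It followed the mesothelial genes over the depots, whose part was not tested.

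Among 14 other secreted factors, 1 was higher and 1 lower in cold BAT and 0 were called in white fat. Of all genes, 5.33% were called for cold in BAT and 0.742% in sWAT, and with 14 genes nothing particular to this list is read from the counts. Bmp8b, a factor of the BMP family made by brown fat, was 10.84, 10.57 and 11.08 in BAT at 6°C against 7.02, 6.71 and 6.16 in BAT at 28°C (4.20 ± 0.29, adjusted p = 1.9e-06). Its other probe set differed by 5.1 and was also called. The study had already listed Bmp8b among the genes most raised by cold in BAT. Igf1, the insulin-like growth factor gene, was lower by -1.27 ± 0.26 (adjusted p = 0.0058), a call that 4 single arrays of the 6 in BAT ended (adjusted p up to 0.034), as did a fit of the BAT groups alone (0.078). Lcn2, lipocalin 2, was 12.66, 12.91 and 13.18 in sWAT at 28°C against 8.63, 8.71 and 9.37 in mWAT (4.02 ± 0.38). Mammary epithelial genes (9) were 10.51 to 11.84 in warm sWAT against 6.05 to 7.23 in warm mWAT, and their part in Lcn2 was not tested.

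The regulators of adipokine genes (14 measured) gave 1 call for cold, in sWAT (0.742% of all genes there and 5.33% in BAT). Ppara, which encodes a nuclear receptor that drives fat burning, was 8.97, 8.90 and 9.08 in sWAT at 6°C against 5.89, 5.93 and 6.09 at 28°C (3.01 ± 0.27, adjusted p = 7.7e-05), and it was 11.16 to 11.78 in BAT over both temperatures. Ppara is also among the brown and beige markers used above, and the study had already listed it among the genes most raised by cold in subcutaneous fat. The genes of the C/EBP factors, whose motif lies in the Lep stretch printed above, were not called for cold in BAT: Cebpa differed by -0.14, Cebpb by 1.32 and Cebpd by -0.03 (adjusted p = 0.39, 0.026 and 0.95). They are named for that motif, after their values were seen.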

How the data were processed

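RNA of each fat sample was amplified with the NuGEN Ovation kit and hybridised by Almac. According to the study's methods, the arrays were processed with the Bioconductor packages affy and limma. The summary algorithm is not given in the sources used here, and the array type is named differently in the methods and in the legends. The deposited table holds 1 normalized intensity per probe set and array, on a linear scale, from the authors. Their log2 was used without normalizing again. Of 45101 probe sets, 64 controls were left out. Gene names come from the platform's annotation table, which can be old: 34945 of the tested probe sets have 1 gene, 932 several and 9160 none, and only probe sets with 1 gene were named.

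One limma fit (version 3.58.1, R 4.3.3) held 6 group means over 18 arrays, with 12 residual and 2.64 prior degrees of freedom, 12 contrasts and Benjamini-Hochberg adjustment over 45037 probe sets. The threshold of 0.01 follows the study's methods. The methods call the 3 arrays of a group biological replicates, while the labels do not say that they are separate mice, so p-values measure the spread between these arrays. The number of arrays limits the precision. The fit was also run on simulated data, for cold in BAT alone, with independent noise of the size found in this fit. Such data cannot test for mixed labels, linked arrays or other tissue.

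The members and lists were chosen with earlier results of these data known. Named were the members with every probe set, and from each further list (receptors, folding and processing, paralogs, complement, NAD salvage, retinoids, other secreted factors, regulators) at most 3 genes with the largest change among those past the threshold of a contrast. Alternatives were a threshold of 0.05, only the compared groups, quantile normalization, centring, scaling to mature adipocyte genes, a filter on dim probe sets, a variance trend with robust estimates, the mean of a gene's probe sets, and leaving out each array or both mWAT arrays 3. A skeletal muscle covariate was chosen after seeing the data. Figures were drawn with matplotlib 3.10.9 in Python 3.11.15.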

Additional observations from a re-analysis of the deposited data

Results flagged for a closer look

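These results were singled out because a limma test of the difference between the cold responses of 2 depots passed the threshold. For Serpina12, the response in BAT exceeded that in mWAT by 3.76 in its brighter probe set and by 3.75 in its dimmer one, and that in sWAT by 2.67 in the dimmer one alone, which was near the bottom of the scale in BAT at 28°C and in sWAT (means 3.38, 4.02 and 3.37 in BAT at 28°C and sWAT at 6 and 28°C), so this value is a poor measure of the sWAT response. For Bmp8b it exceeded that in sWAT by 3.38 (adjusted p = 0.0015) and that in mWAT by 4.06 (3e-04). For Ppara the difference between BAT and sWAT was -3.15 (adjusted p = 0.0015), with a response in sWAT and none called in BAT. These comparisons share the BAT arrays.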

How the results depend on the processing

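Among 1056 values of members under alternatives other than leaving out 1 array, 968 kept direction and side of the threshold, 15 lost the call, 21 gained one, 50 others moved and 2 reversed. Both reversals came with scaling to the mature adipocyte genes in BAT against mWAT at 28°C, where Adipoq was -0.74 and Rbp4 -0.7, and 7 members were called there. With only the compared groups in the fit, the count of called members was 0 for cold in sWAT and 0 for sWAT against mWAT at 28 and at 6°C, with fewer arrays to estimate the spread. For sWAT against mWAT at 6°C it was 4 at a threshold of 0.05 and 4 with a variance trend. For cold in BAT it was 1 with a variance trend and 1 with the muscle covariate. For sWAT against mWAT at 28°C it was 0 with that covariate and 0 without both mWAT arrays 3. With the mean of a gene's probe sets, 1 member, Serpina12, was called for the cold response of BAT minus that of sWAT. Leaving out 1 array gave 1 to 2 called members for cold in BAT, 0 to 1 for cold in sWAT, 0 to 1 for sWAT against mWAT at 28°C and 0 to 1 for the cold response of sWAT minus that of mWAT, gained without array 2 of sWAT at 6°C. Where no fewer arrays or probe sets were used, the cause was not tested. The filter on dim probe sets kept 22390 of them and left out Apln and Itln1. Of the named genes of other lists, 51 of 1230 values lost a call, and 92 of 2250 when 1 array was left out. By the study's methods the 2 temperatures were given to separate groups of mice. Depots could share a mouse, but no paired analysis was possible because the labels do not tie arrays of different depots to a mouse.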

Other observations

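Paralogs of the members, 17 of 21 measured, had 0 limma calls for cold in any depot (5.33% of all genes in BAT, fewer in white fat). Between BAT and sWAT at 28°C, 3 were higher and 7 lower (median -0.59), and between BAT and mWAT 6 were higher and 6 lower (-0.43), where 27.5 and 32.5% of all genes were called. Serpina3n, a serpin like vaspin, was lower in BAT than in sWAT by -2.4 ± 0.32 at 28°C and -3.15 ± 0.32 at 6°C. Retnla, a resistin-like gene also made by macrophages, was lower in BAT than in sWAT by -2.05 ± 0.32 at 6°C (adjusted p = 2e-04). The adiponectin relatives differed in direction between BAT and mWAT at 28°C: C1qtnf9 was higher by 1.86 ± 0.28 and C1qtnf7 lower by -1.84 ± 0.21.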
